A study of Mus musculus with 18 samples.

Results

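Interleukins and interleukin receptors were taken as the genes whose symbol in the count table begins with Il followed by a digit. The rule found 50 of 15596 symbols, and of these 49 had counts in tumours, 32 had counts in cultured cells and 31 had counts in both. The RNA came from MC38, a mouse colon carcinoma line of C57BL/6 origin, with Mbtps1 knocked down (KD) or wild type at Mbtps1 (WT). Mbtps1 encodes site-1 protease, a Golgi enzyme that releases membrane-bound transcription factors such as the SREBPs and ATF6. There were 3 KD and 3 WT libraries of cultured cells, and 5 KD and 5 WT libraries of MC38 tumours from wild-type C57BL/6 mice, so every mouse host had the same stated genotype and only the implanted cells differed. The series description calls the cultured line a knockout and the tumour line a knockdown, while the sample labels call both KD. How Mbtps1 was reduced, and whether the line was 1 clone or a pool, is not stated in the labels. Mbtps1 mRNA was present at 37.0, 35.7 and 34.8 CPM (each gene's count relative to its whole library) in KD cells, against 129, 135 and 118 CPM in WT cells. It was 41.4 to 57.1 CPM in KD tumours and 110 to 130 CPM in WT tumours, so the labels and the gene matched in each of the 16 libraries.

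Interleukins are secreted proteins through which leukocytes, epithelia and stroma signal to each other. Most act on receptors built from a ligand-specific chain and a shared chain: the common gamma chain (Il2rg) serves IL-2, IL-4, IL-7, IL-9, IL-15 and IL-21, gp130 (Il6st) serves IL-6, IL-11 and IL-27, and the IL-1 receptor accessory protein (Il1rap) serves IL-1, IL-33 and IL-36. Common gamma chain, gp130, IL-10 and IL-12 receptors signal through Janus kinases and STAT factors, whereas IL-1 family receptors use the adaptor MyD88, and soluble antagonists such as IL-1RN and IL-18BP limit the last of these. In tumours, IL-15 and IL-18 are known for their action on natural killer (NK) and T cells, IL-10 and IL-27 for modulating T cells, and IL-33 as an alarm signal released from damaged cells.

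Total counts were 14931689 to 15515405 in KD cells, 14240353 to 15155599 in WT cells, 22257519 to 32655739 in KD tumours and 19630410 to 28316572 in WT tumours. The lowest non-zero gene total was 13 over the cell libraries and 15 over the tumour libraries, so genes with fewer counts were probably zeroed by the authors, and a gene without counts is called listed at 0. No label states that the replicates are separate cultures or mice, and the tests therefore speak of spread among libraries, some or all of which may be technical. In bulk RNA, fewer cells of a type and less RNA per cell cannot be told apart. Mitochondrial mRNA took 4.38% ± 1.92 of counts in KD tumours and 1.92% ± 0.50 in WT tumours (SD, n = 5 each), without overlap. Its part in the results was not tested.

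Among the 50 symbols, 18 were listed at 0 in every cultured library, whether KD or WT, and had counts only in tumours. These were the cytokines Il1a, Il1b, Il5, Il6, Il10, Il12b and Il27, the antagonist Il1rn, and the receptor chains Il1r2, Il1rl2, Il2ra, Il2rb, Il7r, Il9r, Il10ra, Il12rb2, Il21r and Il27ra. The pan-leukocyte gene Ptprc (CD45) was also listed at 0 in the cultured cells. The reverse pattern was shown by 1 symbol, Il17f, a cytokine of the IL-17 family, which had 4 to 7 counts per KD cell library, 3 to 8 per WT cell library and was listed at 0 in tumours. Genes of the cytokines IL-2, IL-4, IL-12 alpha, IL-17A and IL-21 were not analysed here.

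Levels can be set side by side between genes only per length, here as CPM per kilobase of merged exons. The highest in each of the 4 groups was Il1rl1, which encodes ST2, the receptor of IL-33. Its mean level was 54.9 CPM per kilobase in KD cells, 72.0 in WT cells, 61.1 in KD tumours and 51.0 in WT tumours. In cells it was followed by Il6st at 20.8 CPM per kilobase in KD and 20.7 in WT libraries, and by Il34, a ligand of the CSF1 receptor, at 8.28 in KD and 7.84 in WT libraries. In tumours the next level was that of Il2rg, at 36.9 CPM per kilobase in KD and 35.3 in WT libraries. Il18bp was at 31.3 in KD tumours and 21.6 in WT tumours, and Il34 at 22.8 in KD tumours and 23.5 in WT tumours, so Il18bp came next in KD tumours and Il34 in WT tumours.

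In cultured cells, Mbtps1 knockdown came with less Il33 mRNA and with more Il15 and Il15ra mRNA, while the other 24 members tested did not pass. Differences were tested by edgeR's quasi-likelihood test over all genes, with Benjamini-Hochberg adjusted p under 0.05 as the threshold. Of 27 members tested, 2 were higher and 1 was lower in KD cells, which is 11.1% of those tested beside 9.33% of all 11905 genes tested. The members' median log2 fold change was 0.00, beside 0.01 for all genes tested. KD and WT libraries did not overlap for 4 of the 27 members with higher and 4 with lower values in KD cells. Over all genes tested 31.8% did not overlap, 16% higher and 15.8% lower. The members' shares called and without overlap lie near those of all genes.

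Il33, the alarm cytokine of the IL-1 family, had 0.664, 1.27 and 2.06 CPM in KD cells, against 7.98, 8.25 and 5.83 CPM in WT cells. The groups did not overlap, and the KD values rest on 10, 19 and 32 counts. The log2 fold change was -2.46 (SE 0.33, edgeR adjusted p = 0.00129, n = 3 each), and the call held under each of the 13 alternative settings. Il33 lies on chromosome 19 at 29925114 to 29960718 on the plus strand, by the GENCODE M21 annotation of GRCm38. Its receptor gene Il1rl1 had 424, 398 and 314 CPM in KD cells, against 474, 466 and 549 CPM in WT cells. Those libraries did not overlap either, but Il1rl1 did not pass (log2 fold change -0.40, SE 0.12, edgeR adjusted p = 0.0621). The co-receptor gene Il1rap had 69.5, 74.2 and 55.9 CPM in KD cells, against 88.3, 77.3 and 80.3 CPM in WT cells, without overlap and without passing (log2 fold change -0.31, SE 0.12, edgeR adjusted p = 0.122).

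Il15, a cytokine that sustains NK cells and memory CD8 T cells, had 4.45, 4.96 and 3.48 CPM in KD cells, against 2.24, 2.05 and 1.97 CPM in WT cells. Its alpha receptor Il15ra, which binds IL-15 and presents it to neighbouring cells, had 22.2, 21.6 and 20.2 CPM in KD cells, against 12.4, 16.4 and 15.7 CPM in WT cells. In both genes every KD library lay above every WT library. The log2 fold changes were 1.03 for Il15 (SE 0.25, edgeR adjusted p = 0.0282) and 0.51 for Il15ra (SE 0.14, edgeR adjusted p = 0.0404). Neither call held without KD replicate 1 or 2, or without WT replicate 1, 2 or 3: over the alternatives the adjusted p ran from 0.0142 to 0.0978 for Il15 and from 0.0178 to 0.198 for Il15ra.

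Among the receptors that did not pass in cells, Il6ra, the IL-6 binding chain, averaged 15.2 ± 2.2 CPM in KD cells and 21.3 ± 2.5 CPM in WT cells (SD, n = 3 each; edgeR adjusted p = 0.0561), and those libraries did not overlap. Il6st, its shared signalling chain, averaged 231 ± 39 CPM in KD cells and 230 ± 5.5 CPM in WT cells. Il17ra, the common IL-17 receptor chain, averaged 51.1 ± 3.1 CPM in KD cells and 43.3 ± 1.8 CPM in WT cells (edgeR adjusted p = 0.167). Il12rb1, a chain shared by the IL-12 and IL-23 receptors, averaged 1.89 ± 0.23 CPM in KD cells and 1.07 ± 0.28 CPM in WT cells (edgeR adjusted p = 0.15). KD lay above WT in each library of Il17ra and of Il12rb1. The 5 members with counts in cells that were too low to be tested there were Il7, Il17f, Il18r1, Il18rap and Il23a.

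**Figure D1:**
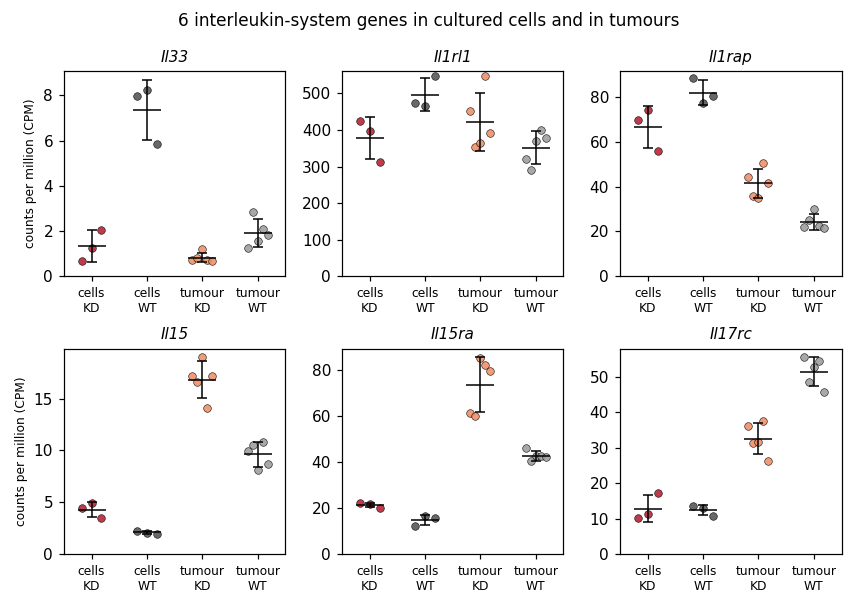
CPM (vertical axis, from 0) of 6 genes in each library of KD cells, WT cells, KD tumours and WT tumours; points are libraries, the long tick is the mean and the bars are SD. Il33 lies lower in KD than in WT in cells and in tumours, Il15 and Il15ra lie higher, and Il1rap and Il1rl1 lie lower in KD cells than in WT cells, while in tumours the KD mean is above the WT mean.

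In tumours, members were more often higher than lower in KD. Of 43 tested, 15 were higher and 5 were lower by edgeR, which is 46.5% beside 38.4% of all 13997 genes tested. Higher calls made up 34.9% of the members tested, beside 20.1% of all genes, and lower calls 11.6%, beside 18.3%. The members' median log2 fold change was 0.23, beside 0.02 for all genes tested. KD and WT tumours did not overlap for 11 of the 43 members higher and 4 lower. Over all genes tested 22.6% did not overlap, 11.3% higher and 11.3% lower. Il4i1 and Il4i1b had the same counts in every library, so they stand for 1 measurement among the 43.

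Leukocyte markers also differed between these tumours. Ptprc had 92.0, 94.7, 76.6, 124 and 123 CPM in KD tumours, against 59.5, 39.5, 59.6, 46.8 and 41.7 CPM in WT tumours. The groups did not overlap (log2 fold change 1.06, SE 0.14). All 6 NK cell markers tested rose, with a summed level of 35.2 to 51.9 CPM in KD tumours and 9.36 to 19.9 CPM in WT tumours. Of 7 T cell markers tested 5 rose, and their sum was 100.2 to 131 CPM in KD tumours and 41.7 to 96.2 CPM in WT tumours. In the macrophage list 1 of 6 rose, and the sum was 1564 to 2851 CPM in KD tumours and 1587 to 2810 CPM in WT tumours, with the groups overlapping. Skeletal muscle markers, of which 3 of 4 tested rose, summed to 76.9 to 255 CPM in KD tumours and 51.7 to 87.4 CPM in WT tumours. Of 5 fibroblast markers 2 fell, Pdgfrb (log2 fold change -1.19) and Pdgfra (-0.55), and the list summed to 557 to 595 CPM in KD tumours and 540 to 669 CPM in WT tumours. Of 6 dendritic cell markers Xcr1 (1.70) and Clec9a (0.95) rose and Ccr7 (-0.77) fell, with sums of 74.7 to 92.1 CPM in KD tumours and 52.4 to 76.6 CPM in WT tumours. Of 5 endothelial markers Cdh5 (-0.72) fell, with sums of 61.4 to 101 CPM in KD tumours and 74.4 to 113 CPM in WT tumours. Among neutrophil markers Csf3r (0.74) rose and S100a9 (-1.28) fell. The part of these cell types in the interleukin results was not tested. In the cultured cells the CD3 and CD8 genes, Adgre1, Csf1r and all neutrophil markers were listed at 0. Some other markers had counts in culture. Clec9a averaged 21.6 CPM in KD cells and 21.8 CPM in WT cells, beside 16.2 CPM in KD tumours and 8.48 CPM in WT tumours. Pdgfra averaged 160 CPM in KD cells and 209 CPM in WT cells, a fall that passed (log2 fold change -0.39, edgeR adjusted p = 0.0319). Dcn averaged 156 CPM in KD cells and 168 CPM in WT cells. Such genes can also come from the MC38 cells.

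All 4 members of the IL-18 system rose, the cytokine, both receptor chains and the inhibitor. Il18, the cytokine that prompts NK and T cells to make interferon gamma, averaged 6.73 ± 1.1 CPM in KD tumours and 4.43 ± 0.59 CPM in WT tumours (SD, n = 5 each; log2 fold change 0.62, edgeR adjusted p = 0.00714). Il18r1, its binding receptor chain, had 6.57, 6.33, 4.81, 7.86 and 8.91 CPM in KD tumours, against 4.44, 2.80, 2.25, 1.38 and 1.52 CPM in WT tumours. Il18rap, the accessory chain, had 13.8, 17.9, 14.1, 16.7 and 23.6 CPM in KD tumours, against 11.5, 5.78, 7.35, 5.04 and 6.14 CPM in WT tumours. In both receptor chains the groups did not overlap, and WT replicate 1 was the highest WT tumour. The log2 fold changes were 1.49 for Il18r1 (SE 0.28, edgeR adjusted p = 0.00162) and 1.28 for Il18rap (SE 0.21, edgeR adjusted p = 0.000771). The soluble inhibitor Il18bp had 118, 100.2, 77.1, 95.4 and 83.2 CPM in KD tumours, against 84.7, 53.4, 64.6, 63.4 and 59.97 CPM in WT tumours. The Il18bp groups overlapped through WT replicate 1, and it passed with a log2 fold change of 0.55 (SE 0.13, edgeR adjusted p = 0.00533). Il18bp overlaps Numa1 in the annotation, whose own log2 fold change in tumours was -0.50, and whether strand was used in counting is not stated. Casp1, the protease that matures IL-18 and IL-1 beta, had a log2 fold change of 0.58 (SE 0.11, edgeR adjusted p = 0.00179).

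Without KD replicates 3 and 5, the tumours with the most mitochondrial mRNA, the call ended for Il18 (edgeR adjusted p = 0.0511) but not for Il18r1, Il18rap or Il18bp. Outside the IL-18 system, Il1rl2, Il10rb, Il17ra, Il17rd and Il27ra also lost their calls without those tumours, while Il2rb and Il12rb2 gained one. Both receptor genes lie next to each other on chromosome 1, Il18r1 at 40465552 to 40500854 and Il18rap at 40515362 to 40551705, in a run of 6 members that also holds Il1r2, Il1r1, Il1rl2 and Il1rl1. Their calls differed along it: Il1r1, Il18r1 and Il18rap rose, Il1rl2 fell, and Il1r2 and Il1rl1 did not pass.

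Other members of the IL-1 family moved in both directions in tumours. Il1rn, the antagonist of IL-1, averaged 17.7 ± 2.3 CPM in KD tumours and 12.99 ± 1.7 CPM in WT tumours without overlap (log2 fold change 0.45, SE 0.11, edgeR adjusted p = 0.00795). Il1r1, the signalling IL-1 receptor, averaged 5.22 ± 0.87 CPM in KD tumours and 3.25 ± 0.84 CPM in WT tumours without overlap (log2 fold change 0.70, SE 0.19, edgeR adjusted p = 0.0111). The co-receptor gene Il1rap had 44.5, 36.0, 34.9, 50.4 and 41.5 CPM in KD tumours, against 22.1, 25.2, 30.1, 22.4 and 21.4 CPM in WT tumours. Every KD tumour lay above every WT tumour (log2 fold change 0.78, SE 0.11, edgeR adjusted p = 0.000355). The receptor of IL-36, Il1rl2, had 1.75, 0.944, 0.735, 2.13 and 1.72 CPM in KD tumours, against 2.89, 2.71, 3.16, 1.78 and 2.44 CPM in WT tumours. The groups overlapped through KD replicate 4 and WT replicate 4 (log2 fold change -0.84, SE 0.27, edgeR adjusted p = 0.0258), and the call ended without KD replicate 2 or WT replicate 3, with an adjusted p up to 0.0703 over the alternatives. Skin keratinocyte markers, among which 1 of 4 tested fell, summed to 25.4 to 47.1 CPM in KD tumours and 29.5 to 88.3 CPM in WT tumours, and their part in the Il1rl2 result was not tested.

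Il33 fell in tumours as well. It had 0.707, 0.809, 1.19, 0.710 and 0.695 CPM in KD tumours, against 1.24, 2.84, 1.58, 2.09 and 1.84 CPM in WT tumours. KD replicate 3 came closest to the WT range and no KD tumour entered it. The log2 fold change was -1.18 (SE 0.28, edgeR adjusted p = 0.00545), on 16 to 39 counts per KD tumour and 27 to 62 per WT tumour. The IL-1 cytokine genes themselves did not pass or were not tested. Il1b averaged 8.03 ± 2.5 CPM in KD tumours and 6.42 ± 2.2 CPM in WT tumours (edgeR adjusted p = 0.313). Il1a, too low to be tested, was 0.270 to 0.766 CPM in KD tumours and 0.153 to 0.632 CPM in WT tumours. The decoy receptor Il1r2 averaged 3.06 ± 0.95 CPM in KD tumours and 3.76 ± 1.1 CPM in WT tumours (edgeR adjusted p = 0.359).

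Promoter sequence was read for the members that RefSeq's promoter table holds, which were 38 of 50, as windows from 250 bases before to 50 after each start site on GRCm38.p6. No window was available for Il7, Il10, Il10ra, Il10rb, Il12rb1, Il15, Il17ra, Il23a, Il27, Il27ra, Il2rb and Il34, so these were not searched. The first of the 2 windows of Il33 and the window of Il1rap are shown because Il33 had the largest fold change called in cells and Il1rap the smallest adjusted p for the difference between tumours and cells. The Il1rap window also holds the only match among the 38 members read to the interferon regulatory factor element. That element was read as GAAA, any 2 bases and GAAA again, and the match is in capitals.
Il33, chr19:29924863-29925162, plus strand: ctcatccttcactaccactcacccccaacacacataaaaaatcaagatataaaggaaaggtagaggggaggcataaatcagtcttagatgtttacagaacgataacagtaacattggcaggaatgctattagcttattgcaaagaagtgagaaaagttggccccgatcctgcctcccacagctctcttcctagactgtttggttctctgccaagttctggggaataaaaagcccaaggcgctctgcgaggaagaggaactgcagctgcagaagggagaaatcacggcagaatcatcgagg
Il1rap, chr16:26581455-26581754, plus strand: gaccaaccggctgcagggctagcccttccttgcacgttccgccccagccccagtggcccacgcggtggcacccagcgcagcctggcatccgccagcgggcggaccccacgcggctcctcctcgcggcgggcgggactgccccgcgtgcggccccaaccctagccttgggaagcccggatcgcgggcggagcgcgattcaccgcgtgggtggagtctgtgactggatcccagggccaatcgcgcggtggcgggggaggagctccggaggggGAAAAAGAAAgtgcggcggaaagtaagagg
Matches were searched on both strands. The interferon regulatory factor element was found in 1 of 38 members (2.63%), beside 3.99% of the 27025 genes of the table. The NF-kappa-B element, read as GGG, any 2 bases and TTTCC, was found in 5 of 38 members (13.2%), beside 1.89% of genes, and these were Il6, Il16, Il1rn, Il4ra and Il17rc. The STAT element TTCNNNGAA was found in 5 of 38 (13.2%), beside 9.55% of genes, and these were Il1r2, Il7r, Il12rb2, Il17d and Il18r1. Il1rn and Il17rc, which share the NF-kappa-B letters, went opposite ways in tumours. Of the 3 start sites of Il18r1, 1 held 2 STAT matches, shown in capitals.
Il18r1, chr1:40465756-40466055, plus strand: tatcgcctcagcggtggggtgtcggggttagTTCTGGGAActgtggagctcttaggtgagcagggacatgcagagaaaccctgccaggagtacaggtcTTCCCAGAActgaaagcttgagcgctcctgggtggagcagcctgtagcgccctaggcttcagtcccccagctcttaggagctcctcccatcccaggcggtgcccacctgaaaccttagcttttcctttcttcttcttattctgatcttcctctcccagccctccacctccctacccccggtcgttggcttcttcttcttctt
A match is a description of letters and not a binding site, and the windows of the other two Il18r1 start sites held none of the 3 motifs.

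**Figure D2:**
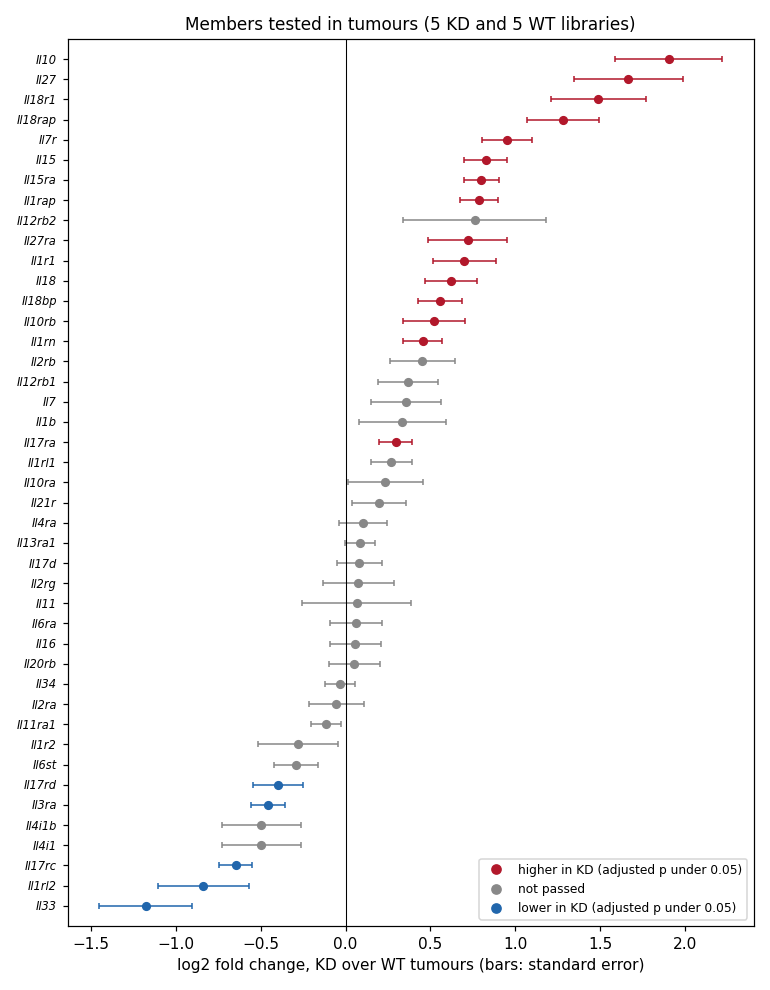
Log2 fold change of KD over WT tumours (horizontal axis) with its standard error for the 43 members tested, ordered by size. The 15 higher calls run from Il17ra at 0.29 to Il10 at 1.91, and the 5 lower calls from Il17rd at -0.40 to Il33 at -1.18.

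The IL-15 pair rose in tumours too. Il15 had 17.2, 16.6, 19.0, 14.1 and 17.2 CPM in KD tumours, against 9.99, 10.6, 8.14, 10.8 and 8.65 CPM in WT tumours. Il15ra had 61.6, 60.2, 85.3, 82.4 and 79.9 CPM in KD tumours, against 46.4, 40.4, 42.6, 42.6 and 42.3 CPM in WT tumours. Neither gene's groups overlapped, and both calls held under each of the 18 alternatives. The log2 fold changes were 0.83 for Il15 (SE 0.12, edgeR adjusted p = 0.000482) and 0.80 for Il15ra (SE 0.10, edgeR adjusted p = 0.000215). The signalling chains that IL-15 uses did not pass: Il2rb averaged 55.9 ± 13 CPM in KD tumours and 41.1 ± 13 CPM in WT tumours (SD, n = 5 each; edgeR adjusted p = 0.0755). Il2rb did pass without WT replicate 1 and without KD replicate 3. It also passed without KD replicates 3 and 5 together (log2 fold change 0.60, edgeR adjusted p = 0.0491). Il2rg averaged 88.1 ± 27 CPM in KD tumours and 84.4 ± 22 CPM in WT tumours (edgeR adjusted p = 0.796), and its sign turned when KD replicate 1 or WT replicate 2 was left out.

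Of the other common gamma chain genes, 1 passed. Il7r, the IL-7 receptor of T cells and innate lymphoid cells, had 8.06, 8.49, 7.01, 8.57 and 9.44 CPM in KD tumours, against 3.53, 4.04, 5.57, 3.57 and 4.94 CPM in WT tumours. The groups did not overlap (log2 fold change 0.95, SE 0.15, edgeR adjusted p = 0.000589). Its ligand Il7 averaged 2.13 ± 0.42 CPM in KD tumours and 1.69 ± 0.35 CPM in WT tumours (edgeR adjusted p = 0.18). Il2ra, the high-affinity IL-2 receptor chain of regulatory and activated T cells, averaged 4.50 ± 0.82 CPM in KD tumours and 4.71 ± 0.84 CPM in WT tumours (edgeR adjusted p = 0.807). Il21r averaged 14.8 ± 2.7 CPM in KD tumours and 13.03 ± 3.3 CPM in WT tumours, and Il4ra averaged 98.3 ± 20 CPM in KD tumours and 92.3 ± 16 CPM in WT tumours. Il9r was too low to be tested and had 4 to 9 counts per KD tumour and 5 to 13 per WT tumour.

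The 2 largest rises in tumours were in cytokines that restrain or shape T cell responses. Il10 had 1.21, 1.26, 0.888, 1.78 and 1.88 CPM in KD tumours, against 0.550, 0.229, 0.237, 0.509 and 0.353 CPM in WT tumours. These are 28 to 46 counts per KD tumour and 5 to 12 per WT tumour, and the groups did not overlap (log2 fold change 1.91, SE 0.31, edgeR adjusted p = 0.000791). Il27, the p28 subunit of IL-27, had 2.12, 2.61, 2.85, 2.53 and 3.39 CPM in KD tumours, against 1.69, 1.01, 0.395, 0.560 and 0.671 CPM in WT tumours. It rose without overlap as well (log2 fold change 1.67, SE 0.32, edgeR adjusted p = 0.00192). The gene of the other IL-27 subunit, Ebi3, did not pass. Ebi3 averaged 8.67 ± 1.1 CPM in KD tumours and 7.72 ± 1.1 CPM in WT tumours (log2 fold change 0.18, edgeR adjusted p = 0.266). Il27 overlaps Apobr in the annotation, whose own log2 fold change in tumours was 0.11 (edgeR adjusted p = 0.485). The receptor chain Il27ra averaged 4.12 ± 0.53 CPM in KD tumours and 2.53 ± 1.0 CPM in WT tumours, with overlap (log2 fold change 0.72, edgeR adjusted p = 0.0269). That call ended without KD replicate 2 or 4 or WT replicate 2, 4 or 5, with an adjusted p up to 0.0679.

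Of the 3 IL-10 family receptor chains, 1 passed. Il10ra averaged 66.6 ± 15 CPM in KD tumours and 57.1 ± 23 CPM in WT tumours (edgeR adjusted p = 0.418). Il10rb, which also serves other IL-10 family cytokines, averaged 34.2 ± 8.2 CPM in KD tumours and 24.2 ± 6.0 CPM in WT tumours with overlap (log2 fold change 0.52, edgeR adjusted p = 0.0393). The Il10rb call ended without KD replicate 3, 4 or 5 or WT replicate 2, 3, 4 or 5. Without KD replicates 3 and 5 together its log2 fold change was 0.25 (edgeR adjusted p = 0.311). Il20rb, a chain of the IL-20 receptors, averaged 4.62 ± 0.86 CPM in KD tumours and 4.50 ± 0.12 CPM in WT tumours.

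**Figure D3:**
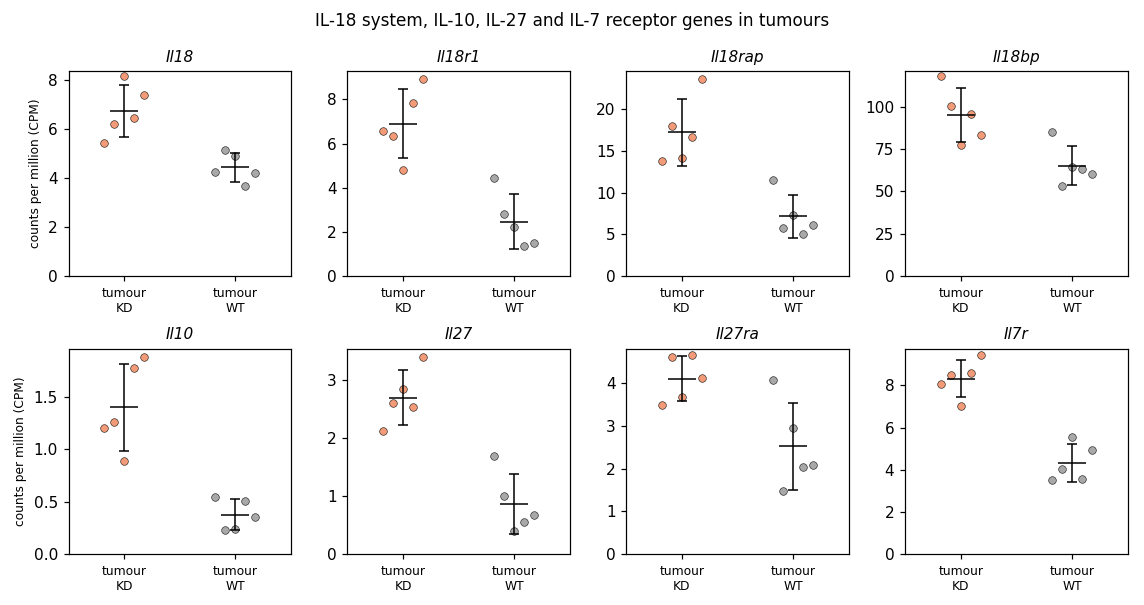
CPM (vertical axis, from 0) of 8 genes in each KD and WT tumour; points are libraries, the long tick is the mean and the bars are SD. KD and WT points do not overlap for Il18, Il18r1, Il18rap, Il10, Il27 and Il7r, and they overlap for Il18bp and Il27ra.

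Beside Il33 and Il1rl2, the members that fell were 2 chains of IL-17 receptors and 1 of the IL-3 receptor. Il17rc, the chain that pairs with IL-17RA to bind IL-17A and IL-17F, had 36.1, 31.5, 31.6, 37.4 and 26.2 CPM in KD tumours, against 55.6, 48.6, 52.8, 54.6 and 45.8 CPM in WT tumours. Every KD tumour lay below every WT tumour (log2 fold change -0.65, SE 0.10, edgeR adjusted p = 0.000469). Il17rd, which is also known as an inhibitor of fibroblast growth factor signalling, averaged 2.86 ± 0.22 CPM in KD tumours and 3.80 ± 0.52 CPM in WT tumours (log2 fold change -0.40, edgeR adjusted p = 0.0485). Il17ra averaged 52.5 ± 7.4 CPM in KD tumours and 43.2 ± 3.2 CPM in WT tumours (log2 fold change 0.29, edgeR adjusted p = 0.0288). The Il17rd call held in 5 of 18 alternatives and ended on leaving out any single tumour except WT replicate 3, and the Il17ra call held in 9 of 18. The Il17ra call ended without KD replicate 3, 4 or 5 or WT replicate 2, 3, 4 or 5. Without KD replicates 3 and 5 together the edgeR adjusted p was 0.192 for Il17ra and 0.135 for Il17rd. Il3ra, the IL-3 binding chain, averaged 22.8 ± 2.1 CPM in KD tumours and 31.8 ± 2.8 CPM in WT tumours without overlap (log2 fold change -0.46, SE 0.10, edgeR adjusted p = 0.00336).

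The remaining members did not pass in tumours. Il6st averaged 137 ± 25 CPM in KD tumours and 169 ± 28 CPM in WT tumours (edgeR adjusted p = 0.0836), and Il6ra 29.1 ± 4.7 CPM in KD tumours and 28.2 ± 6.9 CPM in WT tumours. Il6 itself was too low to be tested, with 3 to 18 counts per KD tumour and 2 to 7 per WT tumour. The IL-12 receptor chains averaged 11.6 ± 1.0 CPM in KD tumours and 9.11 ± 2.9 CPM in WT tumours for Il12rb1, and 1.17 ± 0.67 CPM in KD tumours and 0.687 ± 0.31 CPM in WT tumours for Il12rb2. Il12b, the chain shared by IL-12 and IL-23, had 5 to 11 counts per KD tumour and 6 to 19 per WT tumour, and was not tested. Il4i1, an amino acid oxidase named for its induction by IL-4, averaged 2.03 ± 0.58 CPM in KD tumours and 2.91 ± 0.72 CPM in WT tumours (edgeR adjusted p = 0.107). Its exons overlap those of Nup62, Atf5 and Tbc1d17, whose reads cannot be separated from it here. Il11, Il11ra1, Il13ra1, Il16, Il17d and Il34 had log2 fold changes between -0.12 and 0.09. Il5 and Il23a were also too low to be tested.

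Levels relative to Ptprc were set beside these results as a description. Per 100 Ptprc counts, Il10 was at 1.16 to 1.53 counts in KD tumours and 0.398 to 1.09 in WT tumours, the only one of 49 members whose KD tumours all lay above the WT tumours. KD tumours all lay below WT tumours for 25 members, and the groups overlapped for 23. Ptprc itself rose, so dividing by it lowers KD relative to WT values for every gene: of 15273 genes with tumour counts, 60% lay below without overlap, beside 51.0% of the members, and 0.177% lay above. Among the 15 members called higher in KD tumours, the ratio was higher without overlap for 1, lower without overlap for 1 (Il1rn) and overlapping for 13. Il27 was at 2.04 to 3.72 counts per 100 Ptprc counts in KD tumours and 0.663 to 2.85 in WT tumours. Il18r1 was at 6.28 to 7.25 in KD tumours and 2.94 to 7.47 in WT tumours, and Il7r at 6.90 to 9.16 in KD tumours and 5.93 to 11.8 in WT tumours. Il2rb was at 44.6 to 61.8 in KD tumours and 68.5 to 105 in WT tumours, and Il2ra at 3.97 to 5.60 in KD tumours and 8.27 to 10.6 in WT tumours. Members with counts in cultured MC38 cells can also come from the tumour cells, so the ratio was plotted for the 18 listed at 0 in culture.

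**Figure D4:**
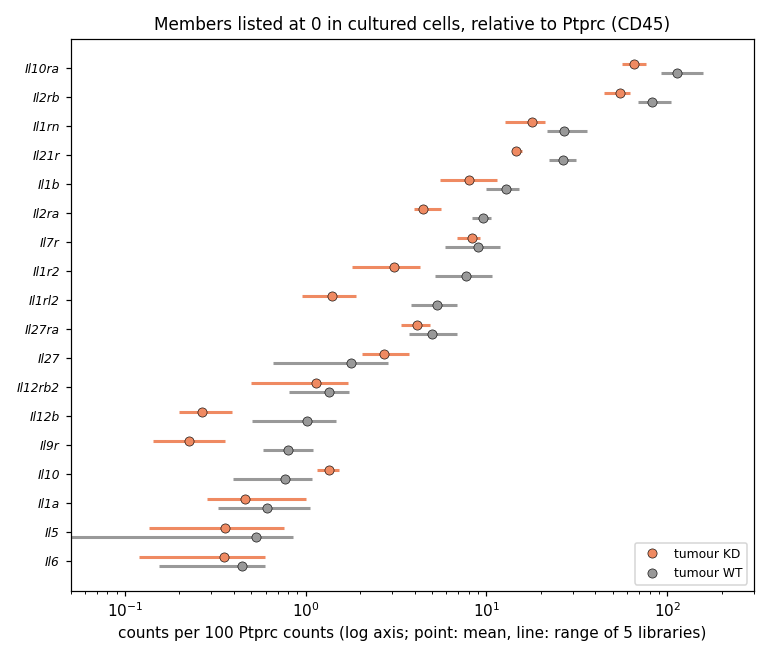
Counts per 100 Ptprc counts (log axis) for the 18 members listed at 0 in cultured cells, KD tumours above WT tumours in each pair; points are means and lines the range of 5 libraries, and the WT line of Il5 ends at the left edge because 1 library had 0 counts. KD lies above WT without overlap for Il10 alone among the 18, below without overlap for 9, and the ranges overlap for 8; over the 2581 genes listed at 0 in cells with tumour counts, 0.891% lie above and 31.6% below.

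The knockdown effect was then compared between tumours and cells by an interaction term fitted over all 16 libraries, as the log2 fold change in tumours minus that in cells. Of 30 members tested, 4 had a higher and 1 a lower log2 fold change in tumours, which is 16.7% beside 22.8% of all 12581 genes tested. The clearest was Il1rap, with a difference of 1.11 (SE 0.18, edgeR adjusted p = 0.000493): its log2 fold change was 0.78 in tumours and -0.31 in cells, and the call held under each of the 24 alternatives. Il1rl1 differed by 0.69 (SE 0.19, edgeR adjusted p = 0.0168). It had 453, 352, 364, 546 and 392 CPM in KD tumours, against 320, 290, 371, 399 and 379 CPM in WT tumours, an overlapping set with a log2 fold change of 0.27, against -0.40 in cells. The Il1rl1 difference was lost without KD cell replicate 3 or WT cell replicate 3, with an adjusted p up to 0.0595.

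Il33 differed by 1.31 (SE 0.45, edgeR adjusted p = 0.0427), since its loss was smaller in tumours, and Il18bp by 0.71 (SE 0.25, edgeR adjusted p = 0.0437). Il17rc differed by -0.66 (SE 0.21, edgeR adjusted p = 0.0291). In cells Il17rc had 10.1, 11.2 and 17.1 CPM in KD libraries, against 13.6, 12.998 and 10.7 CPM in WT libraries, with overlap. Il18bp in cells had 5.71, 8.30 and 5.48 CPM in KD libraries, against 6.65, 7.92 and 6.81 CPM in WT libraries, again with overlap. Those 3 calls did not hold throughout: they were lost in 12 of 24 alternatives for Il33 (adjusted p up to 0.12), in 13 for Il18bp (up to 0.141) and in 5 for Il17rc (up to 0.145). Among single libraries, Il33 lost its call without KD tumour replicate 2 or 3, WT tumour replicate 1, 3, 4 or 5, KD cell replicate 1 or 2, or WT cell replicate 1 or 2. Il18bp lost it without KD tumour replicate 1 or 2, WT tumour replicate 2, 3, 4 or 5, KD cell replicate 1 or 3, or WT cell replicate 1, 2 or 3. Il17rc lost it without WT tumour replicate 4, KD cell replicate 3 or WT cell replicate 3. The Il15 difference was -0.19 and the Il15ra difference 0.30, and neither passed (edgeR adjusted p = 0.608 and 0.221). Il33, Il15 and Il15ra were the 3 members called in cells and in tumours, each in the same direction.

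**Figure D5:**
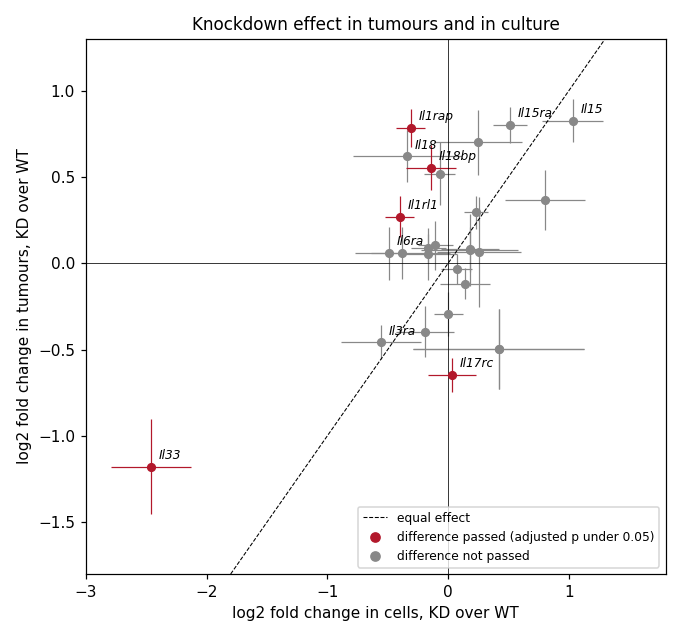
Log2 fold change of KD over WT in cells (horizontal axis) and in tumours (vertical axis) for the 27 members tested in both, with standard errors; the dashed line marks equal effects and red points are members whose difference passed. Il1rap, Il1rl1 and Il18bp lie above the line and left of 0, Il17rc lies below it, and Il33 lies far left above it.

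Signalling genes, together with related cytokine and receptor genes without an Il symbol, were read from lists of 57 genes in all. In cells 3 of 44 tested were higher and 4 lower, which is 15.9% beside 9.33% of all genes tested. In tumours 14 of 54 were higher and 8 lower, which is 40.7% beside 38.4% of all genes, a share near that background. Among Janus kinases and STAT factors, Stat3 fell in cells (log2 fold change -0.56, edgeR adjusted p = 0.0108) and in tumours (-0.74, edgeR adjusted p = 0.000785). Stat5b fell in both as well, by 0.84 on the log2 scale in cells and by 0.26 in tumours, and the difference of 0.60 passed (edgeR adjusted p = 0.0125). Stat4, which carries IL-12 signals in NK and T cells, rose in tumours (log2 fold change 1.15, edgeR adjusted p = 0.00159). Stat4 was listed at 0 in cells. Stat5a fell in tumours (-0.54) and had -0.12 in cells, and the difference did not pass (edgeR adjusted p = 0.109).

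Among the feedback inhibitors, Socs2 fell in cells (log2 fold change -1.97, SE 0.33, edgeR adjusted p = 0.00421) and had 0.14 in tumours, a difference of 2.14 that passed (edgeR adjusted p = 0.00142). Socs1, an inhibitor of interferon and IL-2 family signalling, had a log2 fold change of 1.17 in cells and 0.17 in tumours, a difference of -0.98 that passed (edgeR adjusted p = 0.00808). In tumours Socs4 (0.61), Ptpn2 (0.75), Socs3 (0.50) and Ptpn6 (0.40) rose and Ptpn11 (-0.41) fell, as log2 fold changes. Of the genes that process or carry IL-1 and IL-18 signals, Casp1, its adaptor Pycard (0.88), the pore protein gene Gsdmd (0.38), Irak2 and Irak3 rose in tumours, while Tollip (-0.44) and Irak4 (-0.38) fell. Gsdmd also rose in cells (log2 fold change 0.68, edgeR adjusted p = 0.0223). Nfkbiz, a target and mediator of IL-17 and IL-1 signals, rose in tumours (log2 fold change 0.86, edgeR adjusted p = 0.000836). Clcf1, a cytokine of the gp130 family, rose in cells (0.68) and in tumours (0.62), as log2 fold changes.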

How the data were processed

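Values were deposited by the authors as raw counts: 1 whole number for each symbol and library, with no scaling. Per the submitters' processing notes, the tools were HTSeq 0.13.5, STAR 2.7.1a, Cufflinks 0.17.3, cutadapt 1.18, SAMtools 1.3.1 and FastQC 0.11.9, in no stated order, and the build was hg38, which is human. Of the table's symbols, 95.9% are in the mouse GENCODE M21 annotation of GRCm38, so the build used is uncertain. Strand use in counting is not stated. The screen libraries of the series were not used.

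Each comparison was fitted to its own libraries over all genes with edgeR 4.0.16 in R 4.3.3 (TMM, filterByExpr, robust quasi-likelihood test, two-sided, Benjamini-Hochberg threshold 0.05), and the difference between tumours and cells over all 16 libraries. SE is the log2 fold change over the square root of F. The script was tested on simulated data. Replicates were compared by chi-square: no pair agreed within sampling noise (lowest chi-square per degree of freedom 6.10). Alternatives were DESeq2 1.42.0, limma voom 3.58.1, other size factors and filters, a replicate block, each library left out, and, chosen after seeing the data, KD tumours 3 and 5 left out together. Every member is accounted for, with values in every library for members called in cells or in the difference, or in tumours with a log2 fold change of at least 0.75. Up to 4 genes per pathway list with the smallest p were to be named, and others beyond these, Ptprc and overlapping genes were chosen after their values were seen. Members and lists were chosen with earlier results of these data known. Promoters are RefSeq's. 1 gene of the pathway lists is not reported here.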

Additional observations from a re-analysis of the deposited data

Results flagged for a closer look

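Within the 5 KD tumours, 3 members had 1 library apart from the others, and chance gives such a gap in about 1 in 20 groups. The search took in the called members, the best-known cytokines and the shared chains, in KD and in WT tumours. With that many groups, a few such gaps would arise by chance. Il1a, which encodes IL-1 alpha, was 0.766 CPM in KD replicate 3, and the next highest was 0.409 CPM. Il33 was 1.19 CPM in KD replicate 3, and the next highest was 0.809 CPM. Il1r1 was 6.75 CPM in KD replicate 5, and the next highest was 5.12 CPM. KD replicates 3 and 5 also had the largest mitochondrial shares, at 7.07% and 5.77% of counts. Whether that share bears on these values was not tested.

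The knockdown effect differed between tumours and cells for 5 members by edgeR's interaction test, given as log2 fold change in tumours minus that in cells. The differences were 1.11 for Il1rap, 0.69 for Il1rl1, 1.31 for Il33, 0.71 for Il18bp and -0.66 for Il17rc. Tumours hold host cells that the cultures lack, so a difference within the MC38 cells and one in host cells cannot be told apart.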

How the results depend on the processing

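In cells, 3 members passed. DESeq2's test gave 5 (with Il1rl1 and Il6ra added), the replicate block gave 1, and leaving out 1 library gave 1 to 4. In tumours 20 passed, with 16 to 22 on leaving out 1 library, 16 with the replicate block and 16 without KD replicates 3 and 5. For the difference, 5 passed, with 3 by limma voom, 2 to 6 on leaving out 1 library, 4 with the block and 3 without KD replicates 3 and 5. Deviations of same-numbered KD and WT libraries had correlations of -0.40 to 0.27. Differently numbered libraries were not set beside them, so whether the numbers pair the libraries is not settled. Over the called members, the best-known cytokines and the shared chains, 929 of 1051 values kept direction and side of the threshold, 86 lost and 13 gained the call, and 23 turned sign, all without a call. Il6st in cells turned to -0.0037 with no filter, to -0.014 with voom and to -0.013 with the block. Without KD replicates 3 and 5 the difference was -0.025 for Il17ra and 0.19 for Il2rg. Leaving out 1 library took the log2 fold change in cells to between -0.66 and 0.060 for Il18, -0.11 and 0.13 for Il6st, -0.23 and 0.18 for Il17rc, -0.040 and 0.67 for Il1r1, and -0.21 and 0.45 for Il2rg. It took Il2rg in tumours to between -0.056 and 0.23, and the difference to between -0.37 and 0.31 for Il2rg and -0.12 and 0.57 for Il3ra. The cause of these changes was not tested. Members under about 20 counts per library, such as Il1a, Il5, Il6, Il9r, Il12b and Il23a, were limited by depth. Among the called members, Il10 had 5 to 12 counts per WT tumour. It dropped out under the stricter filter and kept its call in the 17 other alternatives. Il27 had 10 to 37 counts per WT tumour.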
